A study of Mus musculus with 8 samples.

Results

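The core loop of the circadian clock is made here of 7 genes, Arntl (also called Bmal1), Clock, Per1, Per2, Per3, Cry1 and Cry2, and they were taken from the deposited count table by gene symbol. All 7 of the listed symbols were found among 21899 genes, and all 7 were among the 11777 genes with enough reads to be tested. The set was chosen by the difference in read counts between EA and control in these same libraries, so those differences are given as a description, without p-values. RNA sequencing of poly(A) RNA was done on mesenchymal stem cells from mouse femoral bone marrow, the adherent stromal progenitors of bone, fat and cartilage cells. The EA group was exposed to 10 µM ellagic acid, a plant polyphenol, for 48 h, and the control group to the solvent DMSO at a matched dose for 48 h, with 4 libraries in each group. The sources used here give no strain, age, sex or genotype, no step to synchronise the cells and no clock time of harvest. All libraries come from 1 time point, so a change in the level of a rhythmic transcript and a shift of its phase cannot be told apart. In bulk RNA, fewer cells that express a gene and less RNA per cell cannot be told apart either.

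The mammalian clock is a feedback loop of transcription. The proteins BMAL1 (from Arntl) and CLOCK pair and bind E-box sequences, and they drive the Per and Cry genes, whose protein products return to the nucleus and repress that pair. A second loop of REV-ERB repressors (Nr1d1, Nr1d2) and ROR activators sets Arntl transcription through ROR response elements, and D-box binding factors (DBP, TEF, HLF as activators and NFIL3 as repressor) add a further input. The loop runs in most peripheral cells, marrow stroma included, and Per1 and Per2 also respond directly to signals such as glucocorticoids and cAMP.

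Total counts ranged from 14654286 to 16637984 reads in control and from 14112519 to 17390200 in EA. The labels do not say whether libraries came from separate cultures or animals, so the spread between them may be technical. Of 12 mesenchymal stromal markers 12 had reads. Their summed level was 17010 to 19274 CPM (reads of a gene scaled to a common library total) in control and 18690 to 19431 in EA. But Thy1, a defining surface marker, was nearly absent at 12 reads in all control and 7 in all EA libraries. The surface markers Eng and Nt5e were also low, with TMM-scaled means of 2.16 and 4.39 CPM in control and 3.53 and 6.27 CPM in EA. The summed level is carried by Col1a1 and Col1a2. Of the 11 tested markers, 7 were called higher and 3 lower by edgeR (adjusted p below 0.05), beside 33.1% and 34.2% of all tested genes. As TMM-scaled means, Pdgfra had 137 CPM without and 631 CPM with EA, Pdgfrb 190 and 520, Ly6a 33.2 and 11.8, and Prrx1 510 and 338. Of 12 haematopoietic markers 11 had reads, and their summed level was 68.9 to 86.0 CPM in control and 52.6 to 57.8 in EA. Nearly all of it came from Cd14, with a TMM-scaled mean of 34.0 CPM without and 9.64 CPM with EA, and Lyz2, with 34.3 and 51.0 CPM, which moved in opposite directions. The pan-leukocyte gene Ptprc had 16 and 17 reads, Itgam 1 and 0, and Cd3e was at 0 in every library. Summed endothelial markers were at 1.42 to 2.27 CPM in control and 0.779 to 1.13 in EA, adipocyte markers at 0.839 to 2.70 and 0.649 to 3.11, and erythroid markers at 1.17 to 2.58 and 0.812 to 3.51. The part of these marker differences in the clock results was not tested.

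Levels below are given as CPM after TMM scaling, which assumes that most genes do not change or change evenly both ways. Of all tested genes 67.2% were called by edgeR's quasi-likelihood test at an adjusted p below 0.05, 33.1% higher with EA and 34.2% lower, so that assumption cannot be taken for granted. With library totals in place of TMM, the median log2 fold change of all genes moved by −0.36, and the split of called genes went from 3893 higher and 4027 lower to 1940 higher and 7196 lower. With upper-quartile factors, a further scaling, 2830 genes were called higher and 5338 lower. Changes below are relative to TMM scaling unless another scale is named.

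With EA, 5 of the 7 core genes were higher (Per1, Per2, Arntl, Cry1 and Clock) and 2 were lower (Per3 and Cry2), beside a background of 67.2% of tested genes called, and nothing is read from that count because the same contrast chose the set. The libraries of the groups did not overlap for 7 of 7, beside 60.6% of all tested genes (29.9% without overlap and higher, 30.7% without overlap and lower). The largest rise was 4.85-fold for Per1 and the largest fall 3.28-fold for Per3, so that members of 1 gene family moved in opposite directions, as Cry1 and Cry2 also did. The median log2 fold change of the 7 was 0.78, against −0.02 for all tested genes, and 0.42 against −0.38 with library totals. Nothing is read from these medians either, since the same contrast chose the set. With library totals, Per1, Per2, Arntl and Cry1 were still called higher and Per3 and Cry2 lower, while Clock was not called (log2 fold change −0.01).

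**Figure D1:**
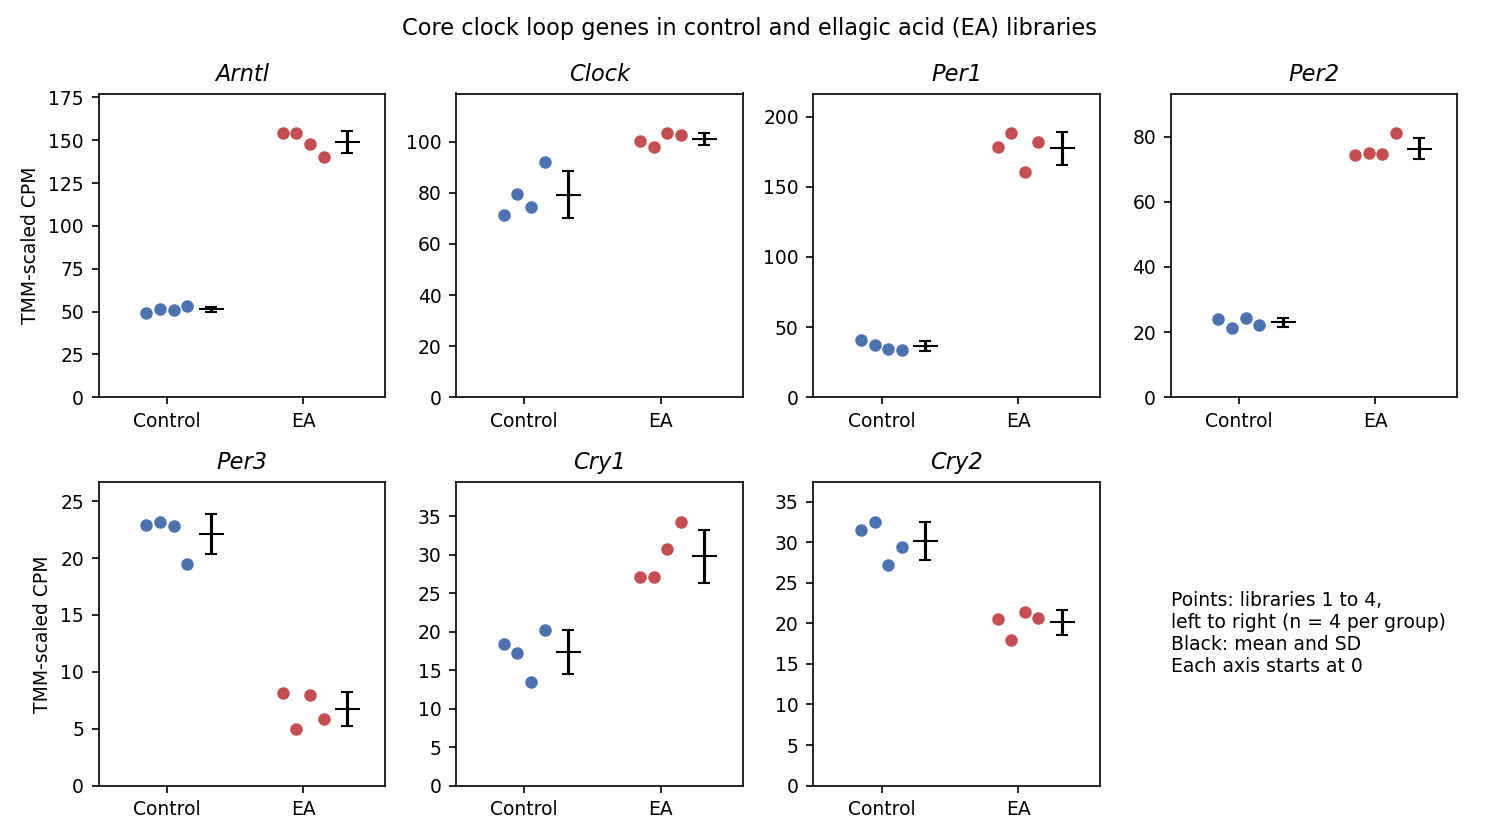
TMM-scaled CPM of the 7 core clock genes in each library, with control in blue, EA in red, and the mean and SD of 4 libraries in black. The groups do not overlap in any panel, and Per3 and Cry2 are the only panels with EA below control.

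The promoters of these genes are where the loop closes, so the stretches that hold clock motifs are shown. Sequences came from RefSeq promoter windows of build GRCm38.p6 (250 bases before to 50 after a start site), whereas the count table uses GRCm39. Of the 7 genes 6 matched, all but Per2, with 10 start sites. Both strands were searched for the E-box CACGTG, the related E′-box CACGTT, the D-box TTATGTAA or TTACGTAA, the ROR element core TAGGTCA, the cAMP element TGACGTCA and the glucocorticoid element, GNACA and TGTNC with 3 bases between them, where N is any base. The 250 bases before the start follow for the 4 genes with a match there, 5′ to 3′ on the gene's strand, with matches in capitals.
Per1, chr11:69098699-69098948, plus strand: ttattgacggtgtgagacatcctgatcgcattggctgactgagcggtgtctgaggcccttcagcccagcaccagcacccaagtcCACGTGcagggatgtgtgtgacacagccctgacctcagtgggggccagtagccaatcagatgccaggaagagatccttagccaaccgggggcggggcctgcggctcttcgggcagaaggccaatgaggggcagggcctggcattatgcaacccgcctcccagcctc
Per3, chr4:151044666-151044915, minus strand: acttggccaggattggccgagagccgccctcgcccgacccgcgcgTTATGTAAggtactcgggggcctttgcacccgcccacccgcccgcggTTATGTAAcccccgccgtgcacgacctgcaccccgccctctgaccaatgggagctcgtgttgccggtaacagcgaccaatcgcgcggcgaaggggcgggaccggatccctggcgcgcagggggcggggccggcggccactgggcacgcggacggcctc
Cry1, chr10:85185055-85185304, minus strand: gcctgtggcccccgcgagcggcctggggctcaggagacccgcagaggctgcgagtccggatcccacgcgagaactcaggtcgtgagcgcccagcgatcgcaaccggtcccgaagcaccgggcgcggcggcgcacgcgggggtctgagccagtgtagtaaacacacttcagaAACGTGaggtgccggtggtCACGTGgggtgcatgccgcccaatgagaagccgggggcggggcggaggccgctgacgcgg
Cry2, chr2:92434070-92434319, minus strand: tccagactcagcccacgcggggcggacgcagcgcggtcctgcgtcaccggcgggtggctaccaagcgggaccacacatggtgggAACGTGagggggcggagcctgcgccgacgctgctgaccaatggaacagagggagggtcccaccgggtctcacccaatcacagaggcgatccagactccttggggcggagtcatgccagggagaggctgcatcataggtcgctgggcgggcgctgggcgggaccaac

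The E-box stood 166 bases before the start in Per1 and 60 bases before it in Cry1, and was found in 7.15% of the 32817 windows of all genes. The E′-box, read as AACGTG on the gene's strand, stood 79 bases before the start in Cry1 and 166 bases before it in Cry2, and 4.69% of all windows held it. Per3 held the D-box TTATGTAA at 205 and at 158 bases before the start, a sequence found in 0.935% of all windows. In Arntl the ROR core lay after the second of its start sites, at chr7:113207529-113207558 on the plus strand, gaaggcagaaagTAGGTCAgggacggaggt, and 2.61% of all windows held it. The 3 windows of Clock held none of these motifs, and no core window held the cAMP or the glucocorticoid element, which stood in 1.79% and 0.475% of all windows. A match describes these letters only and is not evidence of binding. The lack of a match says nothing of other spellings of an element or of sites outside these windows.

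Of the activators, Arntl was the gene with the clearer change. Arntl (ENSMUSG00000055116, chromosome 7, 112806672 to 112913333, build GRCm39) stood at 49.4, 51.8, 51.1 and 53.0 CPM in control libraries 1 to 4 and at 154, 154, 148 and 141 CPM in EA libraries 1 to 4. All EA libraries lay far above all control libraries, with a coefficient of variation of 2.97% in control and 4.33% in EA. Its means were 51.3 ± 1.53 and 149 ± 6.45 CPM (SD, n = 4 each), which is 2.91-fold higher and 1.54 ± 0.06 on the log2 scale (SE).

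CLOCK is the partner of BMAL1 and carries a histone acetyltransferase activity. Clock (ENSMUSG00000029238, chromosome 5, 76357715 to 76452639) stood at 71.1, 79.4, 74.6 and 92.1 CPM in control and at 100.4, 97.8, 103.4 and 102.6 CPM in EA. Control library 4 was high for its group and came within 6 CPM of the lowest EA library, and the EA libraries were tight, with a coefficient of variation of 2.47% against 11.6% in control. The log2 fold change was 0.35 ± 0.07, or 1.27-fold. Raw reads of Clock summed to 5611 in control and 5614 in EA, and its FPKM, which uses library totals, was 6.55 ± 0.739 and 6.49 ± 0.161 (SD, n = 4), so that its rise was present with TMM scaling and not with library totals.

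The PER proteins form the inhibitory complex with the CRY proteins, and Per1 is also an immediate early gene. Per1 (ENSMUSG00000020893, chromosome 11, 68986043 to 69000786) stood at 41.0, 37.4, 34.2 and 33.6 CPM in control and at 179, 188, 161 and 182 CPM in EA. The lowest EA library, library 3, was far above the highest control library. The means were 36.5 ± 3.44 and 177 ± 11.8 CPM, with a log2 fold change of 2.28 ± 0.07.

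Per2 is the member whose loss is best known to disturb rhythms in mice. Per2 (ENSMUSG00000055866, chromosome 1, 91343704 to 91387046) stood at 24.1, 21.3, 24.3 and 22.3 CPM in control and at 74.4, 75.0, 74.6 and 81.1 CPM in EA. EA libraries 1 to 3 lay within 1 CPM of each other and library 4 above them, and no library of the groups overlapped. The log2 fold change was 1.73 ± 0.07, or 3.32-fold, from 23.0 ± 1.42 to 76.3 ± 3.21 CPM (SD, n = 4).

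Per3, which is less needed for the loop than the other Per genes, went the other way. Per3 (ENSMUSG00000028957, chromosome 4, 151088109 to 151129122) stood at 22.9, 23.2, 22.8 and 19.5 CPM in control and at 8.11, 5.002, 7.93 and 5.90 CPM in EA. Control library 4 was the lowest of its group and still above every EA library. The log2 fold change was −1.71 ± 0.13, a 3.28-fold lower level. The EA libraries held 374 reads of Per3 in all against 1555 in control, and their coefficient of variation of 22.7% was above the 10.3% that counting alone gives at this depth. By position Per3 overlapped Camta1, which had 296 reads in control and 406 in EA on the same strand, and was the single core gene that overlapped another gene of the table.

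The CRY proteins are the strongest repressors of the loop. Cry1 (ENSMUSG00000020038, chromosome 10, 84967564 to 85020928) stood at 18.4, 17.2, 13.4 and 20.2 CPM in control and at 27.1, 27.1, 30.7 and 34.3 CPM in EA. It was the most variable core gene in control, with a coefficient of variation of 16.5% against 5.72% from counting, yet the groups did not overlap. The log2 fold change was 0.78 ± 0.11, or 1.72-fold.

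Cry2 (ENSMUSG00000068742, chromosome 2, 92233991 to 92264388) stood at 31.5, 32.5, 27.2 and 29.4 CPM in control and at 20.5, 17.9, 21.4 and 20.6 CPM in EA. Every EA library lay below the lowest control library, control library 3. The log2 fold change was −0.58 ± 0.09, a 1.497-fold lower level, and with library totals it was 1.92-fold lower.

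Ratios of genes within a library do not depend on how libraries are scaled, so they give the changes in balance free of that choice. The ratios use FPKM, the authors' count divided by gene length and by the library total. The ratio of Arntl to Clock was 1.27, 1.19, 1.25 and 1.05 in control and 2.80, 2.88, 2.61 and 2.50 in EA. Arntl and Clock were thus at similar per-length levels in control, with Arntl a little above Clock in each library. In EA Arntl was further above Clock in each library, with a mean ratio 2.27 times that of control. The ratio of Cry1 to Cry2 was 1.10, 1.0003, 0.936 and 1.30 in control and 2.50, 2.85, 2.71 and 3.14 in EA. The Cry genes were near balance in control, and with EA Cry1 exceeded Cry2 in each library, a ratio 2.58 times that of control. Sums of levels, unlike ratios, do depend on scaling. The summed Cry level was 11.3 ± 1.19 FPKM in control and 10.7 ± 1.02 FPKM in EA (SD, n = 4), with overlapping groups, whereas dividing FPKM by the TMM factors gave 9.95 ± 1.10 and 12.1 ± 1.18 with EA higher and no overlap.

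Within the Per family, Per1 gained share and Per3 lost it. Per1 made up 51.0 ± 2.11% of the summed Per FPKM in control and 69.6 ± 1.57% in EA. Per2 held 30.9 ± 1.997% and 28.8 ± 1.34%, and its groups overlapped. Per3 went from 18.1 ± 0.983% to 1.56 ± 0.413% (SD, n = 4 each), without overlap. The ratio of Per3 to Per2 was 0.579, 0.663, 0.573 and 0.534 in control and 0.0665, 0.0406, 0.0648 and 0.0444 in EA, which is 10.9-fold lower on average and was the widest shift of the 4 ratios computed. The ratio of Per1 to Per2 moved less, from 1.66 ± 0.170 to 2.42 ± 0.166. The summed Per level was 14.4 ± 0.926 FPKM in control and 39.9 ± 1.84 FPKM in EA, which was 2.77 times control, and 3.56 times with FPKM divided by the TMM factors.

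**Figure D2:**
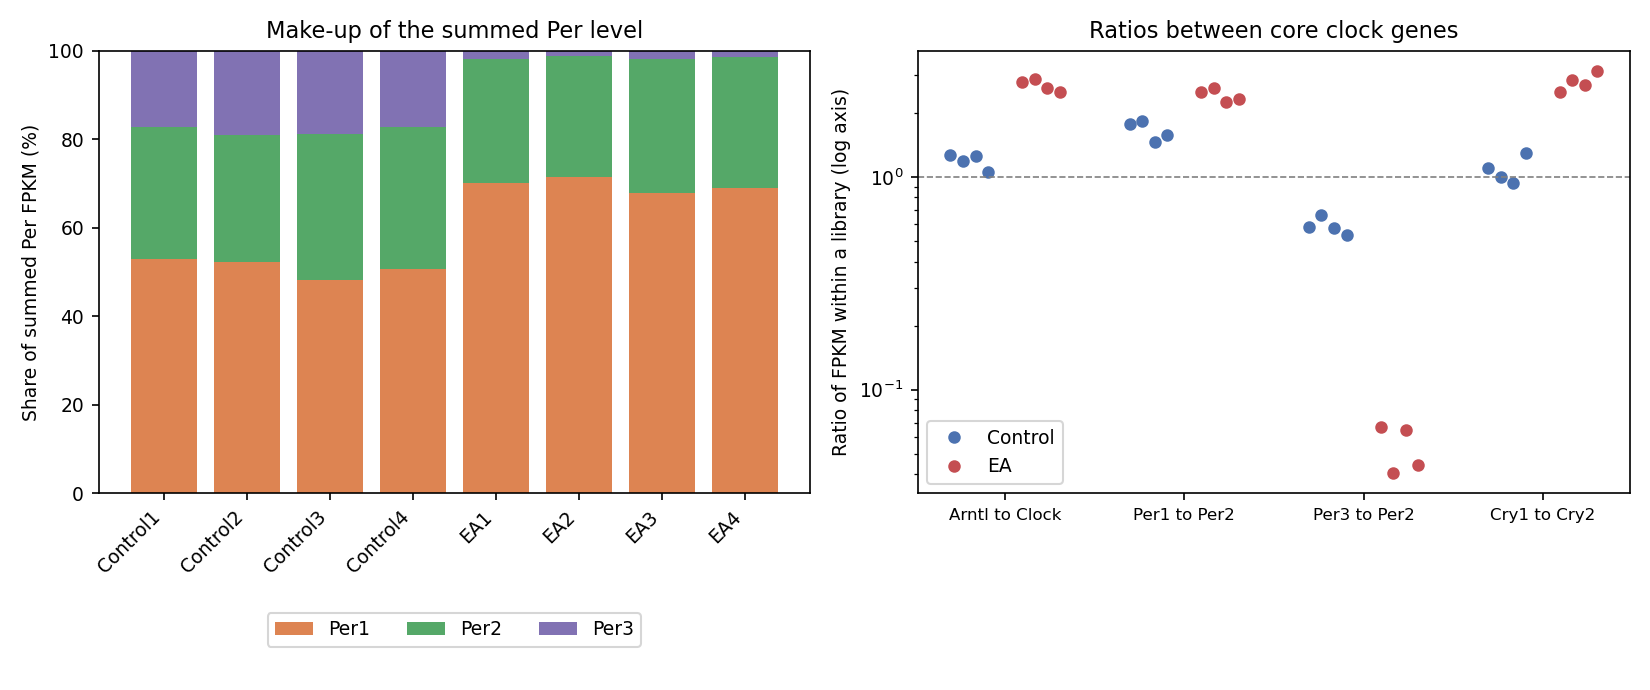
Left, the percent of the summed Per FPKM held by Per1, Per2 and Per3 in each library; right, ratios of FPKM between core genes within each library on a log axis, with control in blue and EA in red and the dashed line at a ratio of 1. Per3 shrinks from about 18.1% to 1.56% of the family sum, and all 4 ratios separate the groups.

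The order of the core genes by per-length level also differed between the groups. In control the 5 highest genes followed closely, with Arntl at 7.73 ± 0.228 FPKM, Per1 at 7.36 ± 0.680, Clock at 6.55 ± 0.739, Cry1 at 5.87 ± 0.939 and Cry2 at 5.41 ± 0.413, and each overlapped the next in range. Per2 at 4.45 ± 0.286 and Per3 at 2.61 ± 0.214 FPKM were each clear of their neighbour above. In EA no neighbours overlapped, in the order Per1 at 27.8 ± 1.80, Arntl at 17.5 ± 0.790, Per2 at 11.5 ± 0.449, Cry1 at 7.86 ± 0.896, Clock at 6.49 ± 0.161, Cry2 at 2.81 ± 0.212 and Per3 at 0.618 ± 0.141 FPKM (SD, n = 4). The span from the highest to the lowest core gene was 2.96-fold in control and 44.9-fold in EA. Per-length levels rest on the gene lengths in the table, from 3340 bases for Cry1 to 13727 bases for Clock.

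**Figure D3:**
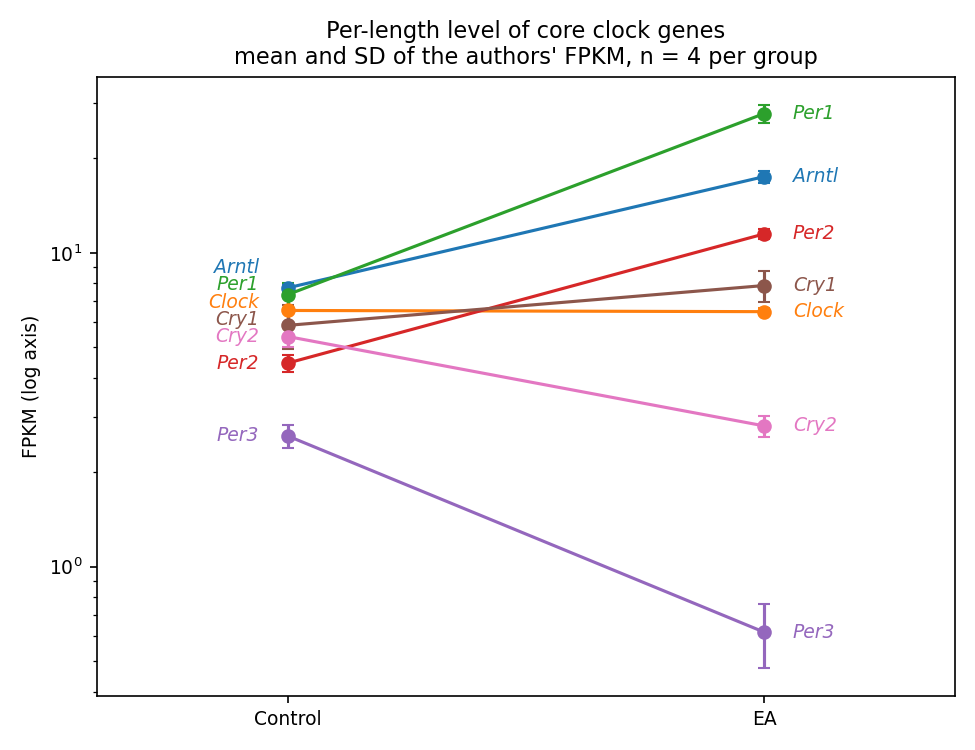
Mean and SD of the authors' FPKM (log axis) for the 7 core clock genes in control and EA, n = 4 per group. The genes lie between 2.61 and 7.73 FPKM in control and spread to between 0.618 and 27.8 FPKM in EA, while Clock is at 6.55 and 6.49 FPKM.

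The tested genes whose pattern over the 8 libraries was most like each core gene were taken by the root mean square difference of log2 CPM after subtracting each gene's control mean. Frmd6 and Mlxip were nearest to Arntl, each at a difference of 0.05. For Clock they were Gfpt1 at 0.03, which encodes the rate-limiting enzyme of the hexosamine pathway, and Ash1l at 0.04, a histone methyltransferase gene. For Per1 they were Bcar3 and Cspg4 at 0.09 each, and for Per2 they were Jun, a subunit of the AP-1 transcription factor, at 0.06 and Phldb1 at 0.07. The genes nearest to Per3, Tnfrsf9 and the interferon-inducible GTPase gene Irgm2, were further off, at 0.16 and 0.17. Per3 had only 374 reads in all EA libraries and a coefficient of variation of 22.7% there. Such spread can widen this distance, and its part was not tested. For Cry1 they were Bend3 and Jarid2 at 0.08 each, and for Cry2 Zmiz2 and Qsox2 at 0.07 each.

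Around the core, more genes of the secondary loop and the output fell than rose. Of 16 listed genes 13 were tested: 3 rose, 8 fell, and their median was −0.48 on the log2 scale against −0.02 for all tested genes. The called share was 84.6% beside the background of 67.2%. By direction, 23.1% were higher and 61.5% lower, beside 33.1% and 34.2% of all tested genes. With library totals 3 of 13 rose and 9 of 13 (69.2%) fell, near the 16.5% and 61.1% of all tested genes. The median on that scale was −0.84, against −0.38 for all tested genes. The list was drawn up with earlier results of these data known.

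The REV-ERB genes, which encode repressors of Arntl, were among the falls. Nr1d1 was at 74.1, 59.6, 56.4 and 63.5 CPM in control and at 8.52, 9.12, 9.23 and 12.2 CPM in EA, and its log2 fold change was −2.70 ± 0.11 (adjusted p = 3.53e-14, edgeR; here and below, Benjamini-Hochberg over all tested genes). Nr1d2 went from 120 ± 10.9 to 31.9 ± 3.28 CPM, 3.77-fold lower (adjusted p = 2.03e-14, edgeR). Arntl was higher in the same libraries in which both of its REV-ERB repressor genes were lower. A link between these changes was not tested. The ROR activator gene Rora, picked with its value known, was 1.18-fold lower, with overlapping groups (adjusted p = 0.0413, edgeR), and Rorb was not called at 1.72 ± 0.556 and 1.43 ± 0.658 CPM.

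Ciart, which encodes a repressor of the BMAL1-CLOCK pair, stood at 34.8, 32.9, 27.6 and 34.4 CPM in control and at 1.93, 2.06, 1.82 and 2.77 CPM in EA. Its log2 fold change of −3.91 ± 0.14 was the most negative of the list (adjusted p = 1.09e-15, edgeR). Bhlhe40 and Bhlhe41 (DEC1 and DEC2) also encode repressors that bind E-boxes, but rose, from 20.1 ± 4.25 to 303 ± 17.7 CPM and from 8.28 ± 0.890 to 108 ± 4.25 CPM. These were 15.1-fold and 13.1-fold rises (adjusted p = 1.97e-13 and 7.50e-19, edgeR). Of the E-box repressor genes, Per1, Per2, Cry1, Bhlhe40 and Bhlhe41 were therefore higher with EA, and Per3, Cry2 and Ciart lower.

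Among D-box factors, the repressor gene Nfil3 rose 2.61-fold, from 40.1 ± 3.95 to 105 ± 5.34 CPM (adjusted p = 7.45e-13, edgeR). The activator gene Dbp, picked with its value known, had 3.20 ± 0.661 CPM in control against 0.323 ± 0.340 in EA, with 226 and 19 reads in all (adjusted p = 3.68e-06, edgeR). Tef was not called, at 99.95 ± 4.53 and 92.5 ± 3.96 CPM, although it was 1.39-fold lower and called with library totals (adjusted p = 5.71e-07, edgeR). Hlf had 3 reads in control and 2 in EA and was not tested. Per3, whose promoter window holds the pair of D-boxes shown above, was lower in the libraries with more Nfil3 and less Dbp. Whether these are linked was not tested.

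Genes for paralogs of the activators were low or lower. Npas2, a paralog of Clock, had 1 read in control and 2 in EA and was not tested. Arntl2, a paralog of Arntl picked with its value known, went from 32.6 ± 1.54 to 9.37 ± 0.704 CPM, 3.46-fold lower (adjusted p = 6.88e-13, edgeR), opposite to Arntl. Timeless and Tipin, which also act at replication forks and were also picked with their values known, were 3.44-fold and 1.39-fold lower (adjusted p = 1.07e-10 and 0.00036, edgeR).

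**Figure D4:**
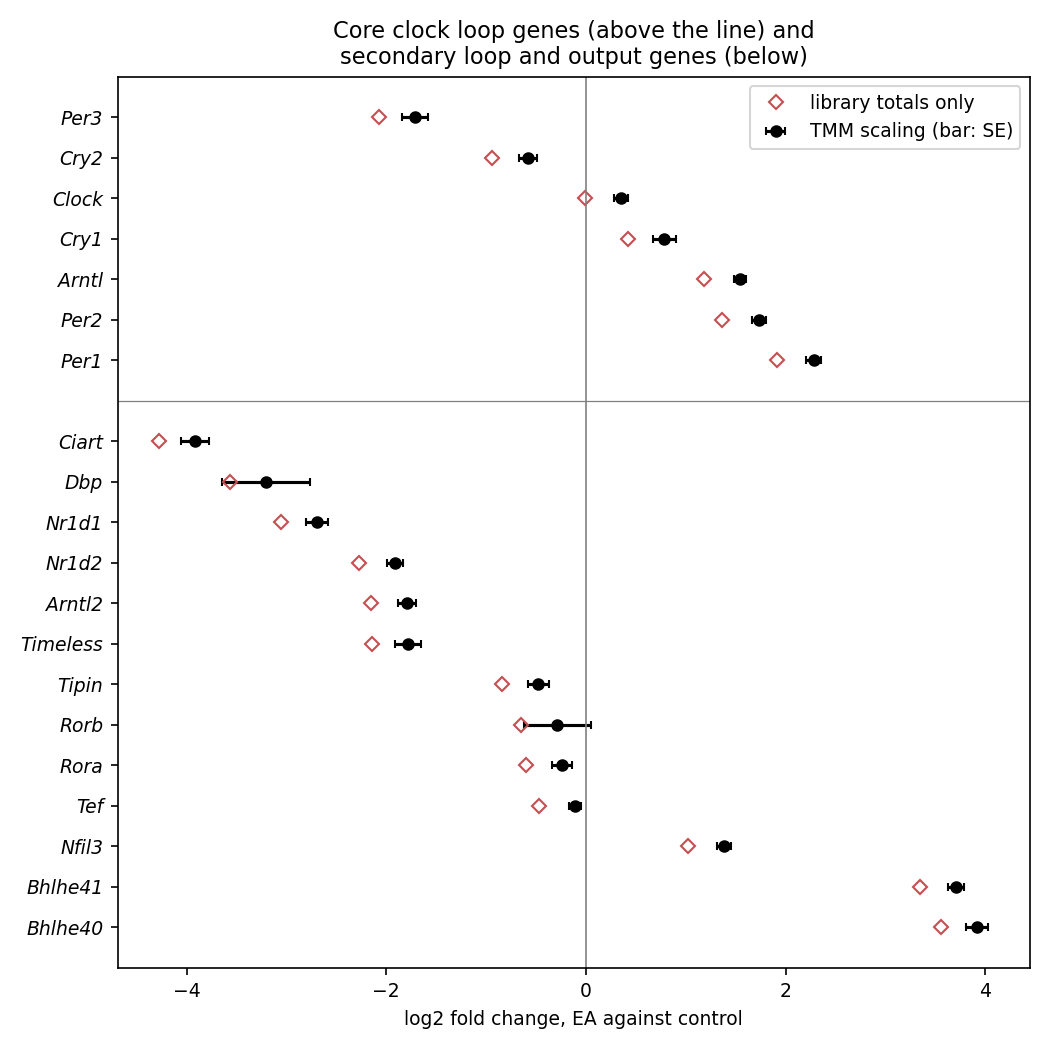
Log2 fold change of EA against control for the 7 core genes (above the line) and the 13 tested secondary loop and output genes (below), with TMM scaling in black (bar: SE) and library totals in red. Library totals move every gene to the left by about 0.36, which takes Clock to −0.01 and leaves the other core genes on the same side.

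In the promoter windows of the secondary list, with 13 genes matched, the E-box was found in Tef, Bhlhe41 and Ciart, and the E′-box in Nr1d1 and Rorb. The D-box TTATGTAA was found in Timeless and the ROR core in Nfil3, and the cAMP element in Hlf. Genes with an E-box in their window went both ways, with Per1, Cry1 and Bhlhe41 higher, Ciart lower and Tef not called.

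Enzymes and cofactors that act on clock proteins were called about as often as all genes. Of 36 listed genes 35 were tested: 18 rose, 7 fell, and their median was 0.16 on the log2 scale. Their called share was 71.4%, beside the background of 67.2%. With library totals 7 of 35 rose and 21 of 35 fell, near the 16.5% and 61.1% of all tested genes. Fbxw7, which encodes a substrate receptor of SCF ubiquitin ligases, rose 3.98-fold and Ddb1, an adaptor of CUL4 ligases, 2.77-fold (adjusted p = 8.58e-14 and 8.15e-16, edgeR). Cipc, a CLOCK-interacting repressor gene, was 1.76-fold lower and the AMP kinase subunit gene Prkaa2 2.18-fold lower (adjusted p = 1.30e-07 and 4.49e-07, edgeR). Parp1 was 1.4005-fold lower (adjusted p = 7.35e-07, edgeR), and Fbxl21, which encodes an F-box protein, had 23 reads in control and 8 in EA and was not tested.

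Per1 is also a direct target of the glucocorticoid receptor. Of 10 listed glucocorticoid response genes, Per1 included, 9 were tested, of which 9 rose and 0 fell by edgeR, DESeq2 and limma voom alike, and 9 had an unadjusted p under 0.05. The background is 67.2% of all tested genes called and 33.1% called higher. The median was 2.83 on the log2 scale, against −0.02 for all tested genes. Per1 was chosen by this contrast, and without it 8 of 8 rose. The rest of the list was also drawn up with earlier results of these data known, so these counts are a description. With library totals 7 rose and 2, Nr3c1 and Pdk4, fell, beside 16.5% and 61.1% of all tested genes. Fkbp5, Tsc22d3 and Errfi1 rose 30.2-fold, 17.7-fold and 34.5-fold (adjusted p = 1.39e-22, 4.90e-22 and 2.07e-21, edgeR), and Per1 at 4.85-fold was below these. Sgk1 and Klf9, at 7.13-fold and 7.12-fold, were also above Per1. The rises were not alike in size. Dusp1 rose 1.89-fold, Pdk4 1.16-fold and the receptor gene Nr3c1 1.14-fold, all below Per1. Zbtb16 had 2 reads in control and 48 in EA and was not tested.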

How the data were processed

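The deposited table held, for each of 4 control and 4 EA libraries, raw read counts per gene and FPKM values. Per the submitters' processing notes, reads were handled with cutadapt 1.15 and HISAT2 2.0.5 on build GRCm39. No source used here names the tool that counted reads, whether it used strand, or the gene models, so reads of overlapping genes cannot be told apart. The FPKM were computed by the authors from count, gene length and column total, and recomputing them gave a largest relative deviation of 3.56e-14.

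The main test on counts was edgeR 4.0.16 under R 4.3.3 (filterByExpr by group, TMM, robust quasi-likelihood F test, no covariates), with Benjamini-Hochberg adjustment over 11777 tested genes and calls at an adjusted p under 0.05. The SE of a log2 fold change is its absolute value over √F. The members, lists and tests were chosen with earlier results of these data known. Named genes are the 7 members, up to 3 called genes per direction by p of each other list, untested list members, and the 2 most alike genes per member among genes averaging 1 or more in log2 CPM and with a symbol that is not provisional. Apart from Camta1, named for its overlap with Per3, any other gene named was picked with its value known. This holds also where the text does not say so, as for Rorb, Tef and the single markers. Some genes that the rule names are not reported here.

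The edgeR script was tested on simulated data in which few of 11682 genes were changed, in random directions. It recovered 76.5% of 1.5-fold, 94.5% of 2-fold and 100% of 4-fold changes. With so few genes changed, that simulation cannot check the TMM scaling for changes as widespread as those called here. Alternatives were RLE, upper-quartile and library-total scaling, no low-count filter, a filter at over 1 CPM in each of 8 libraries, DESeq2 1.42.0, limma 3.58.1 (voom, and log2 FPKM with a pseudocount of 1 or 0.1), an adjusted p under 0.01, a replicate block and leaving out each library. Figures used matplotlib 3.10.9.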

Additional observations from a re-analysis of the deposited data

Results flagged for a closer look

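Each of 58 sets of 4 libraries (the core genes, the genes named by rule and the ratios, in each group) was checked for a library that stands apart from the other 3, and 3 sets had one. Chance alone flags about 1 set in 20. Per2 was at 81.1 CPM in EA library 4, above 74.4 to 75.0 in the others, and Per3 was at 19.5 CPM in control library 4, below 22.8 to 23.2 in the others. Parp1 was at 51.0 CPM in EA library 1, below 55.5 to 56.3 in the others. Without EA library 4 or without control library 4, the log2 fold changes of Per2 and Per3 stayed between 1.70 and 1.76 and between −1.80 and −1.59, the ranges over all 8 fits that each left out 1 library.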

How the results depend on the processing

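The scaling between libraries was the choice that moved most. All genes called went to 1940 higher and 7196 lower with library totals, 1922 and 7179 with limma on log2(FPKM + 0.1), and 1924 and 7170 with log2(FPKM + 1). These 3 fits all scale by library totals. Upper-quartile factors, a separate scaling, lay between them and TMM, at 2830 higher and 5338 lower. Modifiers and cofactors went to 7 higher and 21 lower in each of the 3 fits by library totals. With upper-quartile factors they went to 12 higher and 15 lower. Glucocorticoid response genes went to 2 lower in each of the 3 fits by library totals. Core genes were 4 higher and 2 lower in these 3 fits and 5 higher and 2 lower in every other fit. Clock reversed, at −0.0128 with library totals, −0.00619 with log2(FPKM + 0.1) and −0.00607 with log2(FPKM + 1), as log2 fold changes. With upper-quartile factors Clock stayed higher, at 0.19. The other 6 core genes kept their direction in all fits. Leaving out any 1 library moved Clock between 0.31 and 0.43 and Cry1 between 0.69 and 0.87. The Per shares depend on dividing by gene length. With counts not divided by length the change was 23.4 points for Per1, −24.5 for Per3 and, reversed from −2.10, 1.11 for Per2. The summed Cry level reversed, from −0.08 to 0.28 on the log2 scale, with FPKM divided by the TMM factors, an alternative chosen after seeing the data. With only the 250 bases before the start searched, 0 core genes held the ROR core. Same-numbered libraries did not deviate together (correlations of −0.02 to 0.03). Not every library correlated best with its own number (control library 1 did so with EA library 4, at 0.10). These correlations gave no sign of pairing but cannot show how the libraries were prepared. The replicate block gave 3834 higher and 3960 lower genes, with Per1 at 2.28 and Clock at 0.36.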

Other observations

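The deposited annotation places all 7 core genes under the process circadian rhythm. The core genes were chosen by this contrast, and without them 56 genes of the process were tested, of which 24 were higher and 17 lower with EA, a called share of 73.2% beside 67.2% of all tested genes. For circadian regulation of gene expression, which lists 6 of the core genes, 43 other genes were tested, of which 17 were higher and 12 lower, a called share of 67.4% and so near that of all genes.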
